A study of Mus musculus with 8 samples.

Results

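Somatostatin (Sst) interneurons were examined in single-nucleus RNA-seq of mouse primary visual cortex (V1). Members were the nuclei that the authors' deposited annotation calls Sst, and they made up 2869 of 102330 nuclei. All mice carried loxP-flanked alleles of Nr3c1, the gene for the glucocorticoid receptor (GR fl/fl), and were collected at postnatal day 21. At birth an AAV with the GfaABC1D promoter, which drives expression in astrocytes, delivered either Cre-T2A-EGFP-CAAX (GR-KO) or the same construct with inactive ΔCre (GR-Con). Mice were then normally reared (NR) in a daily light cycle or reared in the dark (DR) until collection. Each of the 4 groups, GR-Con and GR-KO under either rearing, held 2 mice with 1 library each, 1 male and 1 female by the library names. Nuclei were sorted by DRAQ5 and, in the study's methods, as GFP-negative, but the EGFP of these vectors is bound to the membrane, so the gate need not remove nuclei of transduced astrocytes.

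Sst interneurons are inhibitory neurons that arise in the medial ganglionic eminence and release GABA mostly onto the dendrites of other neurons. They include Martinotti cells, whose axons climb to the cortical surface, non-Martinotti cells that innervate the middle layers, and rare long-range cells that express Nos1 and Chodl. Many of them release the peptide somatostatin together with GABA, and in visual cortex they are known for gating dendritic input and for responses that depend on arousal and on the size of a visual stimulus. Neuronal activity raises calcium and cAMP in such cells, and transcription factors that bind the cAMP response element (CRE) then induce immediate early genes and peptide genes.

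Somatostatin itself is the textbook CRE gene, and 4 promoters that hold a CRE are shown for that reason, although Sst passed no comparison below. They were picked for their match. Among the other genes searched, Tenm3 held the palindrome, Nr4a3, Homer1, Cry1, Osbpl3 and Nos1 the short form alone, and Gad1, Rock2, Pde10a, Sorcs3, Haghl and Dusp10 neither. Each run is the 250 bases upstream of the RefSeq start site, 5′ to 3′ on the gene's strand, in build GRCm38.p6. The coordinates are chr16:23890845-23891094 (minus strand) for Sst, chr13:75089607-75089856 (plus strand) for Pcsk1, chr4:149126764-149127013 (minus strand) for Cort and chr15:101266596-101266845 (plus strand) for Nr4a1. Capitals mark the palindromic CRE, TGACGTCA, in Sst and Pcsk1, and its short form TGACG, which reads CGTCA on the other strand, in Cort and Nr4a1.
Sst: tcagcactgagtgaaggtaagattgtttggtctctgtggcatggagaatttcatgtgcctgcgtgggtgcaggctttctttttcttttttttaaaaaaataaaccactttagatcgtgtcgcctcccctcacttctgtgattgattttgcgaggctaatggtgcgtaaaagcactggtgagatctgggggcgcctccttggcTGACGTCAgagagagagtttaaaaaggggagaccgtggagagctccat
Pcsk1: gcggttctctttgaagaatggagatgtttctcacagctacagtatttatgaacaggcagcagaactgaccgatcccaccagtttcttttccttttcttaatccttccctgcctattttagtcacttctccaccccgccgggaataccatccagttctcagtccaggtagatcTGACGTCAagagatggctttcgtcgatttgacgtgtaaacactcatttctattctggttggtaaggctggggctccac
Cort: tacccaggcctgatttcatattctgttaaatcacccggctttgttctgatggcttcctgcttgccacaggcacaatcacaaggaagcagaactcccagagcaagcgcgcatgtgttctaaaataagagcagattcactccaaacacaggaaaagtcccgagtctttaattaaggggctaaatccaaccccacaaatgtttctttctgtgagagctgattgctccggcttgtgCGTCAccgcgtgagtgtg
Nr4a1: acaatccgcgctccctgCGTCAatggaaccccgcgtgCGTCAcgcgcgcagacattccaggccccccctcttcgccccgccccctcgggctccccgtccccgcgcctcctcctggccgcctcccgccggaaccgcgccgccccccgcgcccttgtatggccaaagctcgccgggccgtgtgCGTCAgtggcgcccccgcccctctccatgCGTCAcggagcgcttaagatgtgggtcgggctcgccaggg
The palindrome began 48 bases before the start site in Sst and 78 bases before it in Pcsk1, the convertase that cleaves peptide precursors. The short form began 18 bases before the start in Cort, which encodes cortistatin, a peptide closely related to somatostatin, and it occurred 4 times in Nr4a1, an immediate early nuclear receptor, at 233, 213, 69 and 40 bases. A match is a run of letters and not a shown binding site.

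The annotation was first held against marker genes, as a description, since the authors' clustering used these genes. Expression is given as CPM, a gene's UMIs scaled to a fixed total of UMIs summed over the Sst nuclei of a library, where a UMI marks 1 captured RNA molecule. Sst stood at 38.6 CPM in Sst nuclei, against 2.74 in Pvalb, 2.08 in Vip and 1.39 in layer 2/3 excitatory nuclei, with microglia next highest at 10.5. An Sst UMI was found in 42.1% of Sst nuclei (median depth 17300 UMIs), against 3.21% of the deeper layer 2/3 nuclei (median 21860 UMIs), a type that should lack the gene. Gad1, which encodes a GABA-synthesizing enzyme, was detected in 81.7% of Sst nuclei at 138 CPM, a level under the 301 CPM of Pvalb and the 293 CPM of Vip nuclei but far over the 1.68 CPM of layer 2/3. Other class genes were broadly detected: Gad2 in 95.1% of nuclei, the NMDA receptor subunit gene Grin3a in 96.4%, the synaptic organizer gene Elfn1 in 79.5%, and the transcription factor genes Satb1, Sox6 and Lhx6 in 97.3%, 96.4% and 67.7%. Markers of neighbouring classes were low, with Pvalb at 3.03, Vip at 2.65 and Slc17a7, the vesicular glutamate transporter of excitatory neurons, at 11.1 CPM. Of 6051 genes at 20 CPM or more, 202 were highest in Sst nuclei and 20 exceeded the next type at least 2-fold. Pdyn, the gene for the opioid precursor prodynorphin, led with 45.1-fold, followed by Hpse, encoding heparanase, with 23.9-fold, the kinase gene Tnni3k with 10.7-fold and Sst with 3.69-fold.

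The libraries held 140 to 486 Sst nuclei each, with 4041362 to 9105784 UMIs, and the NR GR-KO female library was the smallest, with the deepest nuclei. It held 140 Sst nuclei at a median of 28411 UMIs, against 14489 to 21161 in the other libraries, and its summed level of 9 excitatory neuron markers was 492 CPM, against 233 to 304. Among Sst nuclei 2 cell barcodes were shared between libraries, and 74 barcodes also occurred in another library on a nucleus of any type. Cre UMIs numbered 43 and 9 in the NR GR-KO male and female and 7 and 9 in the DR GR-KO male and female, and 0 in each of the 4 GR-Con libraries, so the genotype labels held. Cre was found in 9.46%, 6.43%, 2.24% and 2.45% of the Sst nuclei of these GR-KO libraries, at 4.72, 2.23, 1.51 and 1.60 CPM. In the same libraries Cre stood at 10.2, 4.14, 10.4 and 5.98 CPM in astrocytes, at 3.51, 0.717, 0.892 and 1.61 CPM in layer 2/3 nuclei and at 0 to 0.33 CPM in oligodendrocytes. Free RNA and Cre made in the interneurons cannot be told apart here, and a direct effect of Cre in Sst cells was not tested. Nr3c1 stayed between 93.7 and 141 CPM in all 8 libraries, with a log2 fold change of 0.21 for GR-KO against GR-Con (SE 0.12, adjusted p = 0.976 by edgeR's likelihood ratio test). Since the deletion is aimed at astrocytes, this level in interneurons checks nothing about the knockout.

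Sst nuclei formed a steady share of inhibitory nuclei outside that library. The share was 26.6% and 29.1% in the male and female of NR GR-Con, 27.8% and 19.1% in those of NR GR-KO, 28.6% and 28.4% in DR GR-Con, and 27.6% and 29.5% in DR GR-KO. The 19.1% of the NR GR-KO female stood below all the others. DR libraries averaged 28.5% ± 0.779 (SD, n = 4) and NR libraries 25.6% ± 4.48 (n = 4), a difference of 2.86 percentage points that did not exceed the spread (two-sided exact permutation test, p = 0.2, smallest p possible 0.0286). Without the NR GR-KO female the difference was 0.682 points (exact permutation p = 0.4). GR-KO libraries averaged 26.0% ± 4.66 and GR-Con libraries 28.2% ± 1.07 (n = 4 each, exact permutation p = 0.571), and that difference of -2.22 points became 0.074 without the same library. A share among sorted nuclei cannot tell fewer Sst cells from a changed recovery of other types.

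Somatostatin message varied between mice, and neither rearing nor genotype passed the test. Sst measured 33.9 and 39.3 CPM in NR GR-Con, 62.5 and 30.7 in NR GR-KO, 24.6 and 39.5 in DR GR-Con, and 33.0 and 33.8 in DR GR-KO (male, then female). The NR GR-KO male was highest and the DR GR-Con male lowest, and the groups overlapped. DR against NR over both genotypes gave a log2 fold change of -0.34 (SE 0.198, adjusted p = 0.54) and GR-KO against GR-Con over both rearings gave 0.22 (SE 0.198, adjusted p = 1.00). Nuclei with an Sst UMI ranged from 29.0% (95% exact binomial interval 25.0 to 33.3) in the DR GR-Con male to 64.3% (59.5 to 68.9) in the NR GR-KO male, and with every nucleus thinned to 8000 UMIs from 15.2% to 37.3% in the same libraries. Gad1 lay between 84.6 and 184 CPM and also passed no comparison.

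Sub-clustering divided the 2869 nuclei into 14 clusters, of which 11 showed no excess of markers of non-GABA types. The largest were cluster 6 (Il1rapl2, Chrna7, 492 nuclei), cluster 2 (Prkg2, Moxd1, 431 nuclei), cluster 1 (Crhr2, Nmbr, 425 nuclei), cluster 4 (Slc9a2, Schip1, 341 nuclei), cluster 3 (Hpse, Cdh7, 309 nuclei) and cluster 7 (Rxfp1, Crh, 309 nuclei). These leading genes defined the clusters and are given as a description. Cluster 3 carried Hpse in 92.2% of its nuclei. Cluster 11, with 64 nuclei, carried Nos1 in 100% and Chodl in 90.6% of them, together with Tacr1, the substance P receptor gene, and Npy, the combination known for long-range projecting Sst cells. It supplied 1.92% to 3.04% of Sst nuclei in the 7 other libraries and 0 of 140 in the NR GR-KO female, which allows a share of up to 2.14%.

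A few clusters went against the label or stood apart by library. Cluster 9 (Lama3, Zfp804b, 87 nuclei) carried Sst in 2.30% of nuclei, no more than layer 2/3, with Elfn1 at 0.923 CPM and Reln at 3.69 CPM, although Gad1 was found in 85.1% of its nuclei. Cluster 5 (50 nuclei) carried markers of excitatory neurons and astrocytes at a median of 34510 UMIs, cluster 13 (29 nuclei) those of microglia and cluster 14 (21 nuclei) those of oligodendrocyte precursors and endothelium, while all kept Gad1 and Gad2. Cluster 5 made up 10.7% of Sst nuclei in the NR GR-KO female and 0.709% to 1.67% elsewhere. Cluster 12 (Neb, Tenm3, Gm30382, Adarb2, 83 nuclei) held 0 and 1 nuclei of the NR GR-Con male and female, 17 and 1 of NR GR-KO, 31 and 3 of DR GR-Con and 21 and 9 of DR GR-KO. It thus ranged from 0% to 6.73% of a library. The tests that follow were therefore also run without cluster 12 and without the 100 nuclei of clusters 5, 13 and 14, a choice made after seeing the data.

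**Figure D1:**
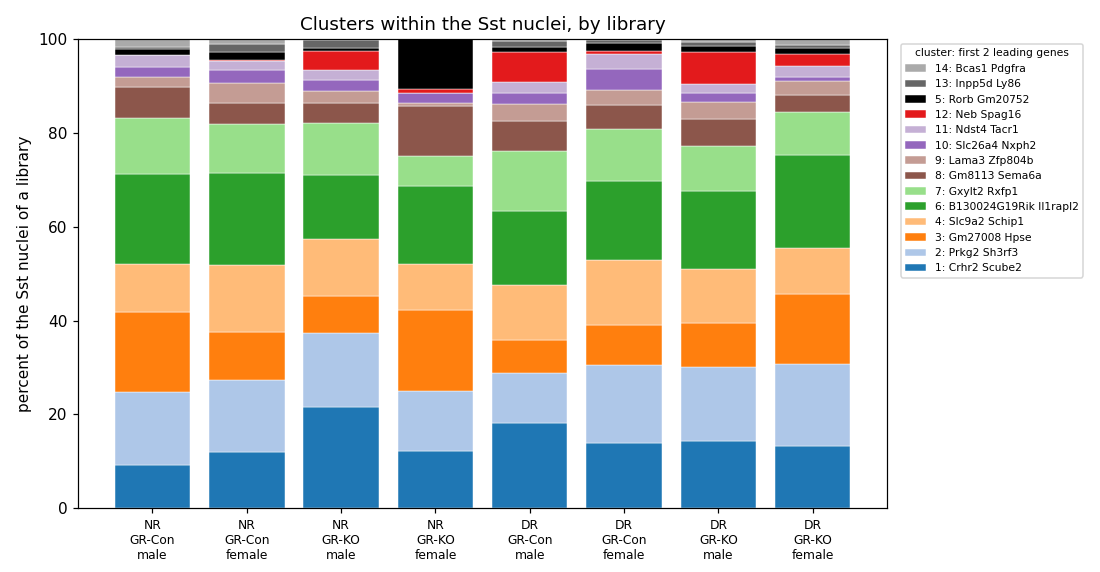
Stacked bars of the 14 clusters of Sst nuclei for each of the 8 libraries, with the y axis in percent of a library's Sst nuclei, the Neb-led cluster 12 in red and the clusters with markers of non-GABA types in black and grey. Cluster 12 reaches 6.73% in the DR GR-KO male, and cluster 5 (black) 10.7% in the NR GR-KO female.

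Dark-rearing in GR-Con mice was the comparison nearest to visual deprivation alone. Osbpl3, Pde10a and Pde7b were lower in the dark, and 5 of 45 genes tested from a synaptic adhesion list were higher. Of all genes tested 0.725% were called. Osbpl3 (chr6:50293330-50456201), which encodes an oxysterol-binding-related protein, measured 551 and 557 CPM in the NR GR-Con male and female and 194 and 189 in DR GR-Con. All DR libraries of GR-Con lay far under all NR ones, a log2 fold change of -1.54 (SE 0.13, adjusted p = 1.62e-28 by the likelihood ratio test and 8.21e-05 by edgeR's quasi-likelihood test). Pde10a (chr17:8525372-8986648), whose product degrades cAMP and cGMP, went from 1192 and 1366 CPM to 762 and 766 (log2 -0.75, SE 0.135, adjusted p = 3.45e-05). Pde7b (chr10:20398004-20725078), for a cAMP-specific phosphodiesterase, went from 81.2 and 89.8 CPM to 45.7 and 36.6 (log2 -1.06, SE 0.159, adjusted p = 7.17e-08). The scaffold gene Frmpd1 fell from 51.1 and 48.6 CPM to 22.7 and 26.5 (log2 -1.03, SE 0.148).

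Genes that rose in the dark included sorting and guidance receptors. Sorcs3 (chr19:48206025-48805505), encoding a sorting receptor of the Vps10 family, rose from 51.6 and 54.6 CPM to 109 and 116 (log2 1.08, SE 0.134, adjusted p = 7.31e-12). Dcc, the netrin receptor gene, rose from 347 and 366 CPM to 674 and 570 (log2 0.79, SE 0.144, adjusted p = 4.06e-05). Nos1, the neuronal nitric oxide synthase gene, rose from 48.3 and 44.5 CPM to 72.3 and 89.3 (log2 0.79, SE 0.157, adjusted p = 0.000283). Ndst4, for a heparan sulfate-modifying enzyme, rose by a log2 fold change of 1.12, the neuregulin gene Nrg1 by 0.60, L3mbtl4 by 1.62 and the long non-coding RNA Gm30382 by 2.14, and all 4 also passed the quasi-likelihood test. Nos1 and Ndst4 both lead cluster 11, whose share was 2.54% and 1.95% in NR GR-Con and 2.26% and 3.04% in DR GR-Con. Gm30382 was highest in cluster 12, at 237 CPM, and that cluster held 0 and 1 nuclei of NR GR-Con and 31 and 3 of DR GR-Con. Without clusters 5, 13 and 14 Nrg1 stood at 0.44 and no longer passed (adjusted p = 0.12).

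In all, 101 of 13931 genes passed the likelihood ratio test at an adjusted p of 0.05, a background of 0.725%, with 79 of them higher and 22 lower in DR. Only 21 passed the quasi-likelihood test and 46 passed DESeq2. Of the synaptic adhesion genes 5 of 45 tested rose and none fell: Tenm3 (teneurin, log2 1.28), Adgrl2 (latrophilin, 1.23), Dcc (0.79), Unc5d (netrin receptor, 0.68) and Nrg1 (0.60). Their list median was 0.03 on the log2 scale, against 0.00 for all genes tested. Tenm3 and Adgrl2 were highest in cluster 12, at 2702 and 260 CPM. Lists were chosen with earlier results of these data known, so counts of their members are descriptions. Single members of other lists passed: the kainate receptor gene Grik4 rose (0.72) as 1 of 18 ionotropic glutamate receptor genes, Gabrd, for the delta subunit of extrasynaptic GABA-A receptors, fell (-0.78) as 1 of 14 GABA receptor genes, and the kappa opioid receptor gene Oprk1 fell (-1.07) as 1 of 31 modulator and peptide receptor genes. None of 15 genes of GABA synthesis and release, 19 of peptides and peptide processing, 38 of voltage-gated channels, 9 immediate early transcription factors, 19 of the circadian clock or 8 Sst class markers was called. Leaving out the NR GR-Con male gave 39 genes, against 164 without the DR GR-Con female. Stac2, for an adaptor of voltage-gated calcium channels, fell (-0.83) and so did Npnt, encoding the matrix protein nephronectin (-0.81).

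**Figure D2:**
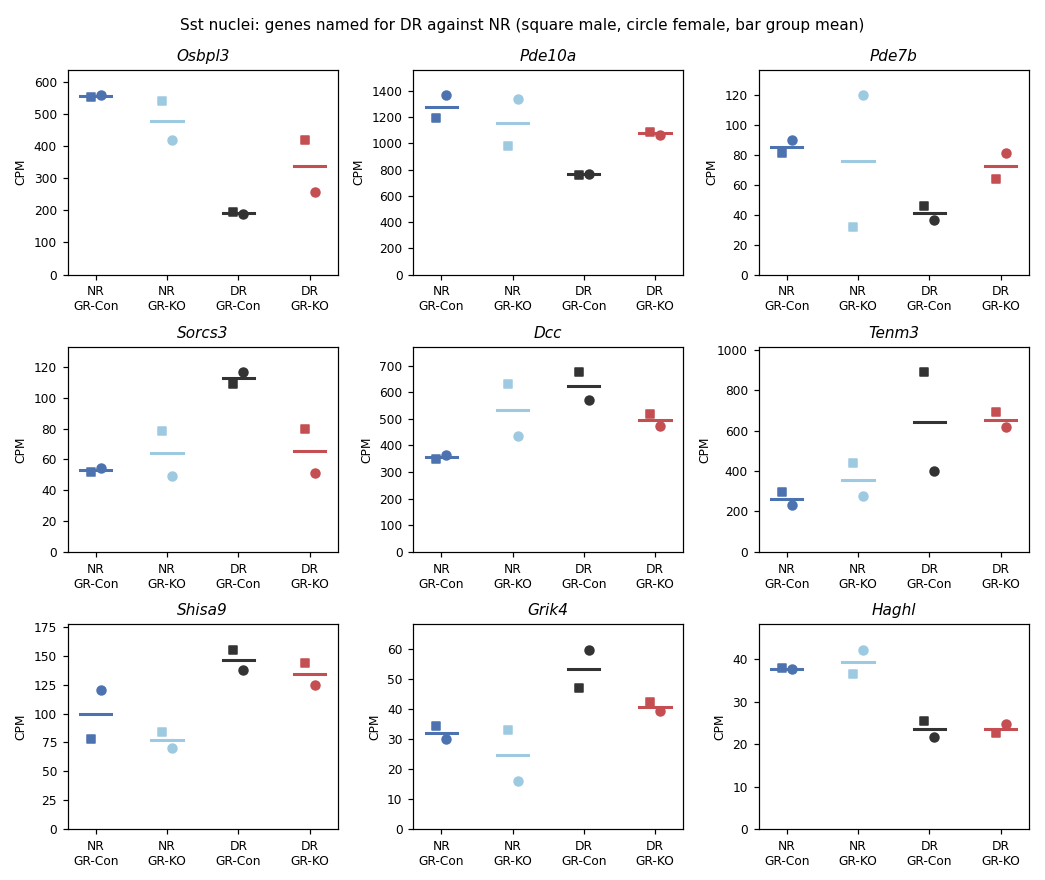
Expression of 9 genes in Sst nuclei by library, in CPM on the y axis, with the 4 groups on the x axis, a square for the male and a circle for the female library, and a bar at their mean. Osbpl3 shows NR GR-Con libraries at 551 and 557 and DR GR-Con libraries at 194 and 189 CPM, with the DR GR-KO libraries between them at 417 and 258.

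The Osbpl3 difference was present across the Sst population. Of the 8 clusters with at least 20 nuclei in both groups, Osbpl3 was lower in DR GR-Con in 8. It went from 699.5 to 262 CPM in cluster 1, from 641 to 198 in cluster 2, from 321 to 75.3 in cluster 6 and from 1092 to 321 in cluster 9, so levels differed between clusters while the direction did not. Nrg1 was higher in 8 of 8 clusters, Dcc and Sorcs3 in 7, and Tenm3 in 6, and Pde10a and Frmpd1 were lower in 7 and Pde7b in 6. Ndst4 was higher in 3 and lower in 2. Cells of 1 library are not replicates, so these are counts of directions with no test. The genes had been called on the sum of the same nuclei, so the counts are no further evidence of a difference.

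**Figure D3:**
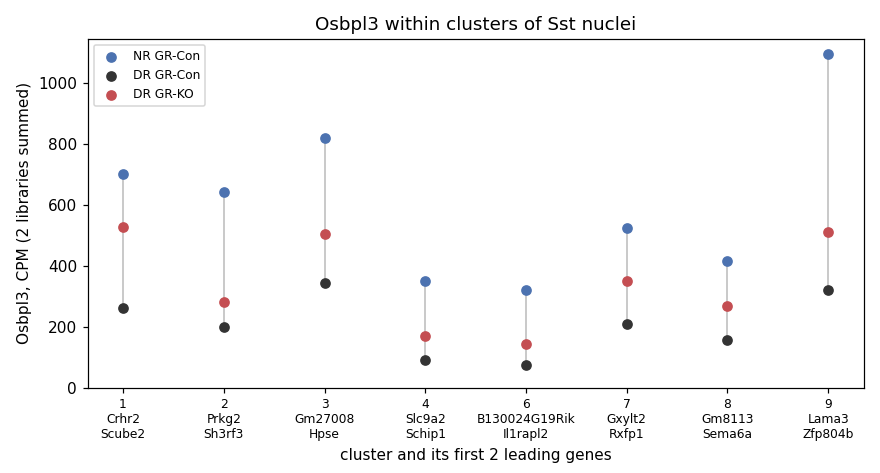
Osbpl3 in CPM (y axis) for each cluster of Sst nuclei with enough nuclei (x axis, cluster number), with nuclei of each group summed, in NR GR-Con, DR GR-Con and DR GR-KO. In every cluster drawn the DR GR-Con value is the lowest of the groups, as in cluster 1 with 699.5, 262 and 527 CPM.

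The 4 libraries with the most nuclei of cluster 12 also had the 4 highest Tenm3 levels. Tenm3 (chr8:48227682-48843951), a homophilic adhesion gene that matches pre- and postsynaptic partners, measured 294 and 233 CPM in NR GR-Con, 439 and 276 in NR GR-KO, 887 and 399 in DR GR-Con, and 692 and 615 in DR GR-KO. The highest value belonged to the DR GR-Con male, which also gave 31 of the 83 nuclei of cluster 12, where Tenm3 stood at 2702 CPM. Without cluster 12 the DR against NR difference over both genotypes was 0.81 (adjusted p = 0.0113) instead of 1.09 (SE 0.224, adjusted p = 0.00121), and in GR-KO it was 0.55 (adjusted p = 0.298) instead of 0.89 (adjusted p = 0.0151). Adarb2, a marker of Vip and Lamp5 interneurons, was called 0.87 higher in DR GR-Con, ranged from 13.1 to 160 CPM over the libraries and stood at 663 CPM in cluster 12. It was not called without clusters 5, 13 and 14 (log2 0.46, adjusted p = 0.996).

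In GR-KO mice dark-rearing raised a lysosomal gene, an AMPA receptor partner and modulator receptors. Laptm4b, for a lysosomal membrane protein, measured 29.4 and 20.3 CPM in NR GR-KO and 55.3 and 55.5 in DR GR-KO (log2 1.15, SE 0.183, adjusted p = 1.73e-06). Shisa9, for an auxiliary subunit of AMPA receptors, measured 84.2 and 70.3 CPM against 144 and 125 (log2 0.81, SE 0.159, adjusted p = 0.000775). Prkg2, a cGMP-dependent kinase gene that leads cluster 2, rose by 0.87 and the cadherin gene Cdh22 by 0.85. Of 29 receptor genes for modulators and peptides 3 passed, all on the higher side, beside 0.414% of all genes called. They were Npy2r for neuropeptide Y (1.78, at 1.10 to 4.31 CPM in these libraries), Htr4 for serotonin (1.16) and Chrna7 for acetylcholine (0.73). Grm4, a metabotropic glutamate receptor gene, rose by 0.58 as 1 of 13.

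Of 13048 genes tested in GR-KO 54 passed, or 0.414%, with 28 of them higher and 26 lower in DR. Only 1 passed the quasi-likelihood test and 18 passed DESeq2. Among the 26 lower genes 9, or 34.6%, were at least 4-fold higher in excitatory neurons than in Sst nuclei, against 2.21% of all genes tested, Nrgn (-1.04) among them. Without the clusters with markers of non-GABA types 62 genes were called, and 37 of the 54 were among them. With the Neb-led cluster left out as well, 30 of the 54 were still called. The NR GR-KO female was the library with the highest excitatory marker level. A fit without it cannot decide its part, since the lone NR GR-KO mouse is then assumed to vary like the DR pair. The part of excitatory neurons' RNA in these calls was not tested. The single gene called by the quasi-likelihood test was Gm47283 (log2 -1.66). It measured 61.0 and 227 CPM in NR GR-Con, 208 and 217 in NR GR-KO, 71.5 and 185 in DR GR-Con and 66.5 and 66.3 in DR GR-KO (male, then female). The gene annotation places it on the Y chromosome, but its level did not follow sex, as the GR-Con females stood over the GR-Con males. Mid1 (-0.90) was high in the same 4 libraries, as both genes were in Pvalb, Vip and layer 2/3 nuclei. The count depended on single mice: it was 732 without the NR GR-KO male, 254 without the NR GR-KO female, 8 without the DR GR-KO male and 5 without the DR GR-KO female.

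Haghl and Tenm3 changed in both genotypes. No library is shared between the DR against NR comparisons of GR-Con and of GR-KO, and both genes were called in the same direction in each. Haghl (chr17:25779843-25785673), for a hydroxyacylglutathione hydrolase-like protein, fell by 0.69 on the log2 scale in GR-Con and by 0.70 in GR-KO. Its NR libraries stood at 37.9, 37.8, 36.6 and 42.3 CPM and its DR libraries at 25.4, 21.8, 22.6 and 24.8, with no overlap. Tenm3 rose by 1.28 and 0.89.

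With all 8 libraries, 138 of 13572 genes passed for DR against NR, or 1.02%, with 77 higher and 61 lower in DR. The 138 genes became 318 without the NR GR-KO male, 72 without the NR GR-Con male, 59 without the DR GR-KO female and 51 without the DR GR-KO male. The quasi-likelihood test called 2, Haghl among them, and DESeq2 called 73, of which 52 were higher. Shisa9 averaged 88.2 ± 22.2 CPM in NR and 140 ± 12.8 in DR (SD, n = 4 each, log2 0.68, SE 0.136, adjusted p = 0.000818). Grik4 averaged 28.3 ± 8.38 against 47.0 ± 9.05 CPM (log2 0.71, SE 0.163, adjusted p = 0.00397). Kirrel3, an immunoglobulin adhesion gene, averaged 1347 ± 329 against 2104 ± 164 CPM (log2 0.66, adjusted p = 0.00466), and the teneurin gene Tenm2 3701 ± 114 against 4523 ± 95.6 CPM (log2 0.29, SE 0.0829, adjusted p = 0.0449). Trpm3, a cation channel gene, rose by 0.57 and the G protein subunit gene Gng7 by 0.65. On the lower side Gabrd averaged 16.2 ± 2.84 in NR and 9.87 ± 0.437 CPM in DR (log2 -0.69, SE 0.163, adjusted p = 0.00601), and Stac2 41.3 ± 2.22 and 25.9 ± 4.68 CPM (log2 -0.68, SE 0.136, adjusted p = 0.000818). Gabrd, Stac2, Shisa9, Grik4, Kirrel3 and Tenm2 did not overlap between rearings, as held for 108 of the 138 called genes. The share without overlap among all genes tested is not given, so that count has no background beside it. Genes named by fold change were picked for not overlapping, so this is a description. Oprk1 fell by 0.91, with libraries that overlapped (6.70 CPM lowest in NR, 7.26 highest in DR).

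The lists of activity and clock genes gave 1 call each in the dark, beside 1.02% of all genes called. Of 10 immediate early transcription factor genes 1 was lower, Egr4 (log2 -1.67, adjusted p = 0.0361), at 0.43 to 1.05 CPM in DR and 0.99 to 3.73 CPM in NR, and of 21 activity-regulated effector genes 1 was lower, Rgs4, a regulator of G protein signalling (-0.73). Of 19 clock genes 1 was lower, Dbp, a clock output transcription factor, at 4.55, 10.1, 8.24 and 10.4 CPM in NR and 3.89, 3.86, 3.66 and 4.61 in DR (log2 -1.01, SE 0.26, adjusted p = 0.0177), so the NR GR-Con male lay within the DR range. Light also sets the clock, and by the study's methods mice of both rearings were collected in the same window of the day. Other single genes lower in DR were Tuba1a, for a tubulin (-0.58), Aldoa, for a glycolytic aldolase (-0.62), Actg1, for an actin (-0.49), Rpl13, for a ribosomal protein (-0.52), and the nuclear RNA Malat1 at 61170 to 76708 CPM in NR and 39272 to 48945 in DR (-0.57).

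**Figure D4:**
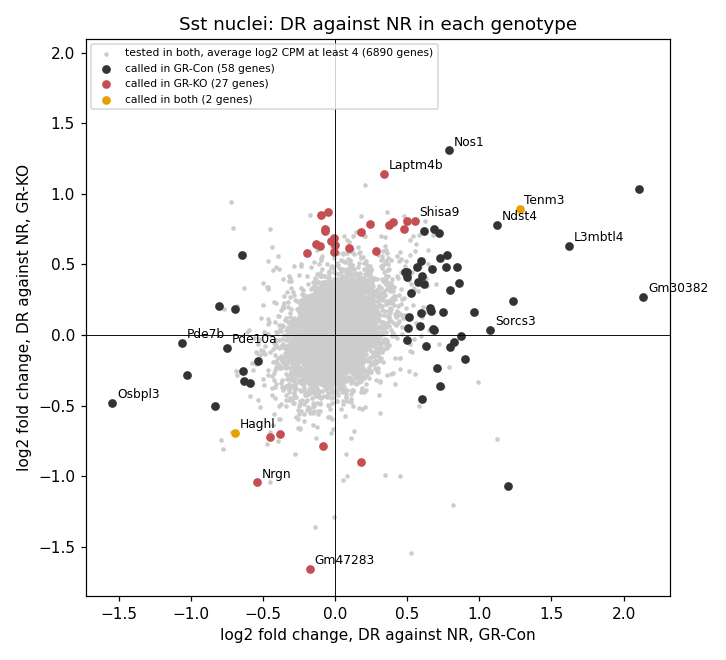
Log2 fold change of DR against NR in GR-Con (x axis) and in GR-KO (y axis) for 6890 genes, each drawn as a point and averaging 4 or more on the log2 CPM scale. Of these, 58 were called in GR-Con alone, 27 in GR-KO alone and 2 in both.

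Whether genotype changed the dark response was tested as an interaction. The interaction is the log2 genotype effect under NR less the one under DR. For Osbpl3 it was -1.06 (adjusted p = 0.192), for Dcc 0.88 (adjusted p = 0.192), for Sorcs3 1.04 (adjusted p = 0.256) and for Pde10a -0.66 (adjusted p = 0.643), so the smaller dark response of these genes in GR-KO was not past the threshold. Of 13951 genes 5 passed, or 0.0358%, and Dusp10, for a phosphatase of stress-activated kinases, had the lowest adjusted p (0.000581). It measured 44.4 and 37.8 CPM in NR GR-Con, 26.0 and 29.0 in NR GR-KO, 25.3 and 27.5 in DR GR-Con and 41.8 and 37.7 in DR GR-KO. Its genotype difference was -0.60 in NR and 0.61 in DR. Without clusters 5, 13 and 14 the interaction called 0 genes, and with cluster 12 left out as well it called 4, of which 3 were among the 5. The quasi-likelihood test and DESeq2 called 0 genes, with 784 and 281 at an unadjusted p under 0.05 against 716 by the likelihood ratio test. Leaving out 1 library moved the count to between 0 without the NR GR-Con male and 120 without the NR GR-KO male, with 12 without the NR GR-Con female, 47 without the NR GR-KO female, 16 and 14 without the DR GR-Con male and female, and 3 without the DR GR-KO female.

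The effect of astrocyte GR loss was asked as GR-KO against GR-Con in all 8 libraries, and the peptide-related genes Pcsk1 and Cort were higher in GR-KO. Pcsk1 (chr13:75089826-75134861) measured 11.0 and 8.41 CPM in NR GR-Con, 31.3 and 14.4 in NR GR-KO, 16.1 and 9.13 in DR GR-Con and 24.1 and 25.3 in DR GR-KO. GR-KO was the higher within each rearing, and over both the groups overlapped in 1 library each (14.4 and 16.1). The means were 23.8 ± 7.02 and 11.1 ± 3.45 CPM (SD, n = 4 each, log2 1.12, SE 0.233, adjusted p = 0.00369). Cort (chr4:149125034-149126763) measured 2.04 and 2.75 CPM in NR GR-Con, 5.93 and 2.72 in NR GR-KO, 2.43 and 3.51 in DR GR-Con and 11.2 and 8.33 in DR GR-KO (log2 1.39, SE 0.276, adjusted p = 0.00222). The NR GR-KO female stood among the controls. Both genes are members of the list of peptides and peptide processing, of which 2 of 18 tested rose and none fell, against 0.111% of all genes called in either direction. That list was chosen with earlier results of these data known, so its share is a description.

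Nr4a1 (chr15:101254269-101274795) measured 11.3 and 10.1, 21.9 and 14.6, 13.5 and 16.3, and 19.2 and 23.7 CPM in the same order of groups (log2 0.67, SE 0.153, adjusted p = 0.0213). It was the only call among 10 immediate early transcription factor genes, of which 100% had a positive log2 fold change with a median of 0.485, against 49.7% of all genes tested. Marker lists of other cell types moved by a like amount: 88.9% of 9 excitatory neuron markers were positive with a median of 0.488, and 100% of 4 oligodendrocyte markers with a median of 0.554. Nr4a1 stood at 25.5 to 62.4 CPM in layer 2/3 nuclei of the 8 libraries and at 10.1 to 23.7 CPM in Sst nuclei, and the part of other cells' RNA in these values was not tested. Most members lay at a few CPM or less, such as Junb at 7.21 against 3.45 CPM (log2 1.03, adjusted p = 0.646), Egr1 (0.72, adjusted p = 0.801) and Npas4 (0.13, adjusted p = 1.00). Among 21 activity-regulated effector genes 81.0% were positive and 1, Pcsk1, was called. Without clusters 5, 13 and 14 Nr4a1 stood at 0.59 (adjusted p = 0.413) and Pcsk1 at 1.05 (adjusted p = 0.0893).

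Rock2 (chr12:16894895-16987823), a serine/threonine kinase gene, was higher in GR-KO under both rearings, by 0.35 in NR (adjusted p = 0.984) and 0.63 in DR (adjusted p = 0.000237). It measured 240 and 256 CPM in NR GR-Con, 347 and 285 in NR GR-KO, 276 and 258 in DR GR-Con and 404 and 409 in DR GR-KO, with all GR-KO libraries over all GR-Con ones. Of the 15 genes called over both rearings 7 did not overlap, Rock2 among them, with no share among all genes tested to set beside that count. The means were 361 ± 58.1 and 257 ± 14.6 CPM (n = 4 each, log2 0.49, SE 0.0978, adjusted p = 0.00222). St18, a transcription factor gene (1.18), and AC149090.1 (0.50) were also higher in GR-KO. Adamts16, for a secreted protease of the ADAMTS family, was lower (-0.62), at 15.3 to 25.6 CPM in GR-KO and 30.1 to 44.6 in GR-Con. In all 15 of 13572 genes passed, or 0.111%, with 12 higher and 3 lower. DESeq2 called 6, all higher, and the quasi-likelihood test called 0, with 809 genes at an unadjusted p under 0.05 against 730 by the likelihood ratio test and 349 by DESeq2. Single libraries moved this to 34 without the NR GR-KO male, 52 without the NR GR-KO female and 3 without the DR GR-KO female.

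Within dark-reared mice the genotypes differed in Osbpl3, in 4 of 21 activity-regulated effector genes and in 2 of 19 clock genes, against 0.481% of all genes called. The lists were chosen with earlier results of these data known, so these counts are descriptions. GR-KO against GR-Con in DR and DR against NR in GR-Con share the 2 DR GR-Con libraries, so a chance deviation of those 2 moves both. Osbpl3 measured 194 and 189 CPM in DR GR-Con and 417 and 258 in DR GR-KO (log2 0.84, SE 0.195, adjusted p = 0.00785), beside -1.54 for DR against NR in GR-Con. Pde7b gave 0.85 beside -1.06, Pde10a 0.52 beside -0.75, Sorcs3 -0.77 beside 1.08 and Ndst4 -1.06 beside 1.12. Pde10a and Ndst4 also passed the quasi-likelihood test. Osbpl3, Rock2, Homer1 and Pde10a were higher in DR GR-KO in 9 of 9 clusters with at least 20 nuclei in both groups, Pcsk1 in 8 and Cort in 7. These genes had been called on the sum of the same nuclei. The cluster counts therefore describe where a difference lay and are no further evidence of it.

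Homer1 (chr13:93299635-93405129), for a postsynaptic scaffold with an activity-induced short form, measured 89.3 and 114 CPM in DR GR-Con and 144 and 195 in DR GR-KO (log2 0.77, SE 0.174, adjusted p = 0.00631). Crem, for a transcription factor that binds CREs, measured 22.3 and 19.7 against 32.7 and 30.0 CPM (log2 0.60, SE 0.156, adjusted p = 0.0291). With Pcsk1 (1.00) these made 3 of 21 activity-regulated effector genes that rose, while Sorcs3 fell, beside the 0.481% of all genes. Nr4a3, at 1.29 to 6.20 CPM, rose by 1.75 as 1 of 10 immediate early transcription factor genes (list median 0.52). Cort rose by 1.72 (SE 0.308, adjusted p = 0.000111).

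The clock repressor genes Cry1 and Per2 were the 2 of 19 clock genes that passed, beside 0.481% of all genes. Cry1 measured 8.64 and 9.60 CPM in DR GR-Con and 16.6 and 16.7 in DR GR-KO (log2 0.89, adjusted p = 0.00641), and Per2 6.57 and 8.78 against 14.4 and 13.6 CPM (log2 0.89, adjusted p = 0.0277). Their NR libraries, at 7.21 to 12.9 CPM for Cry1 and 9.65 to 16.1 for Per2, overlapped between genotypes. Htr2c, a serotonin receptor gene that leads cluster 7, rose by 1.20 as 1 of 31 modulator and peptide receptor genes, and Rnf144b, a ubiquitin ligase gene, by 0.79. None of 15 glucocorticoid response genes was called (median 0.17, against -0.01 for all genes). None of 3 axonal genes, Epha3, Gap43 and Robo1, was called, with values from 0.04 to 0.19. The study named these 3 in excitatory neurons, from GR-KO against GR-Con in NR, a comparison that shares no mouse with this one. It also showed such genes in the DR mice, so the 3 are not independent evidence of a direction. Under NR none of the 3 was called in Sst nuclei either, with values from -0.31 to 0.09.

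In DR 66 of 13722 genes passed, or 0.481%, with 49 higher and 17 lower in GR-KO. Only 5 passed the quasi-likelihood test and 18 passed DESeq2, of which 16 were higher. Leaving out libraries gave 232 genes without the DR GR-Con male, 24 without the DR GR-KO male and 8 without the DR GR-KO female. Without clusters 5, 13 and 14 Crem stood at 0.56 (adjusted p = 0.0972), Per2 at 0.85 (adjusted p = 0.0706) and Sorcs3 at -0.87 (adjusted p = 0.0931).

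The promoter letters were counted over the same gene sets. Of the 49 genes higher in DR GR-KO 38 had a promoter in the RefSeq table, and the short CRE, on either strand and including those within the palindrome, was found in 18 of them, or 47.4%, against 30.9% of the tested genes and 19.8% of all 27025 genes with a promoter. Of the 79 genes higher in dark-reared GR-Con 50 had a promoter, and 8 of these, or 16.0%, held it. The palindrome occurred in 1.77% of all promoters, in 3.11% of those of the tested genes, and in 1 of 38 (2.63%) of the genes higher in DR GR-KO, which was Pcsk1. These shares are descriptions of the 250 bases searched.

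**Figure D5:**
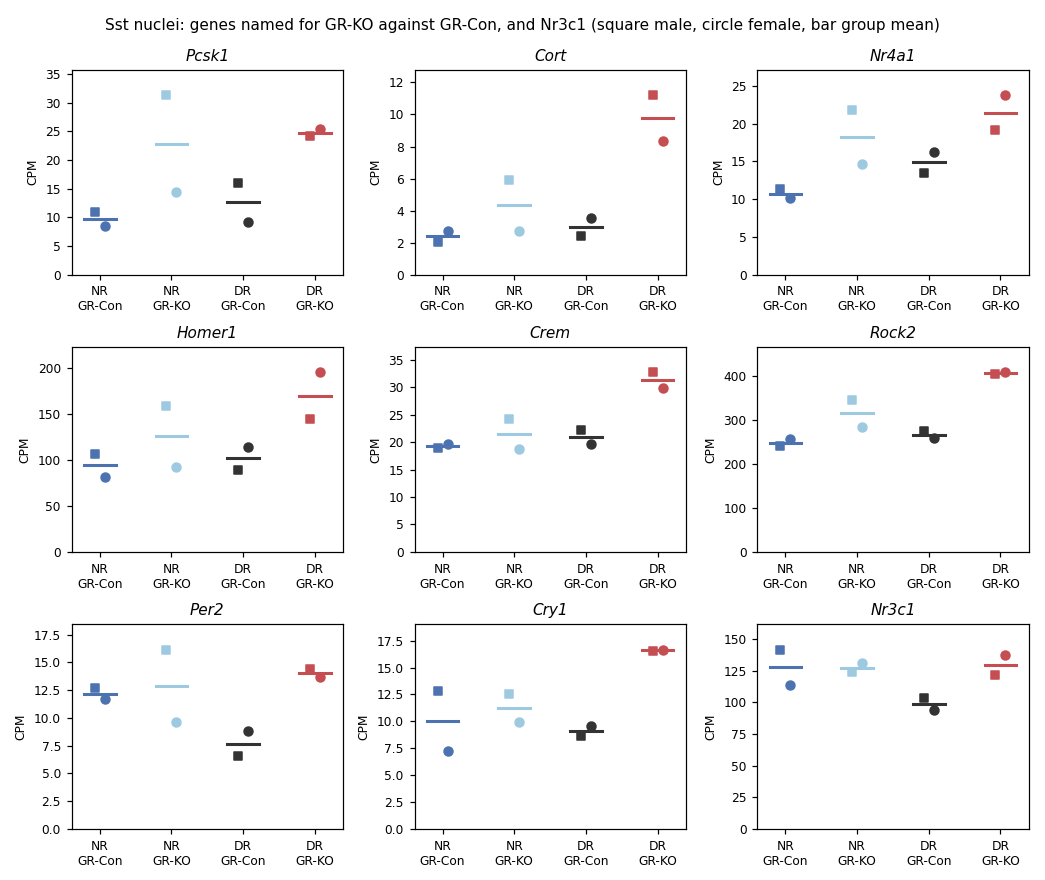
Expression of 9 genes in Sst nuclei by library, in CPM on the y axis, with the 4 groups on the x axis, a square for the male and a circle for the female library, and a bar at their mean. Rock2 lies at 285 to 409 CPM in the GR-KO and at 240 to 276 CPM in the GR-Con libraries, while Nr3c1 stays at 93.7 to 141 CPM.

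In normally reared mice few genes separated the genotypes, and most of the higher ones are genes of excitatory neurons. C1qtnf7, a secreted protein gene that leads cluster 8, measured 33.9 and 32.3 CPM in NR GR-Con and 11.97 and 12.4 in NR GR-KO (log2 -1.46, SE 0.181, adjusted p = 1.23e-11), while cluster 8 held 6.78% and 4.46% of nuclei in NR GR-Con and 4.26% and 10.7% in NR GR-KO. Tnni3k, among the genes leading in Sst nuclei by level, measured 48.6 and 36.2 against 24.8 and 20.0 CPM (log2 -0.91, adjusted p = 0.0186), and Svil, for a membrane-associated actin-binding protein, was also lower (-0.80). The transgene Cre was among the 9 genes higher in GR-KO. Of the 9, 6 (66.7%) met the rule of a level at least 4-fold higher in excitatory neurons than in Sst nuclei, against 2.34% of genes tested. Levels for this rule came from GR-Con libraries, where Cre was 0 in Sst nuclei. Cre therefore met the rule by default and is among the 6, without being a gene of excitatory neurons. Slc17a7 measured 6.43 and 5.66 CPM in NR GR-Con and 16.3 and 27.7 in NR GR-KO (log2 1.84, adjusted p = 0.000189), and the adhesion gene Nectin3 7.21 and 9.44 against 16.5 and 37.1 (log2 1.68, adjusted p = 0.0411). Without clusters 5, 13 and 14 Slc17a7 stood at 1.25 (adjusted p = 0.0537), and Kcnt2, a sodium-activated potassium channel gene, at 0.51 (adjusted p = 1.00) instead of 0.88 (adjusted p = 0.000957).

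In NR 14 of 13404 genes passed, or 0.104%, with 9 higher and 5 lower, and 0 passed the quasi-likelihood test and 3 passed DESeq2, with 641 and 167 genes at an unadjusted p under 0.05 against 589 by the likelihood ratio test. Leaving out the NR GR-Con male gave 2 genes, against 242 without the NR GR-KO male and 133 without the NR GR-KO female. Pcsk1, Cort and Rock2 were not called in NR alone.

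Part of the dark response differed from that of other interneurons of the same libraries. Pvalb interneurons, the other large class from the medial ganglionic eminence (3905 nuclei), and Vip interneurons (2396 nuclei) were taken for comparison, with the DR against NR difference of each library's pair of cell types as the measure over both genotypes. Osbpl3 fell in all 3 types, by 1.02 in Sst, 1.13 in Pvalb and 1.38 in Vip on the log2 scale, and the difference to Pvalb was 0.11 (SE 0.0776, adjusted p = 0.785). Haghl likewise gave -0.69 in Sst, -0.57 in Pvalb and -0.52 in Vip (adjusted p of the differences 0.834 and 0.939). Tenm3 rose more in Sst, by 1.09 (0.81 without cluster 12) against 0.26 in Pvalb (difference 0.77, SE 0.152, adjusted p = 0.000374, 0.0611 by the quasi-likelihood test), while Vip nuclei stood at 0.48 with no called difference to Sst (0.59, adjusted p = 0.131). The Tenm3 difference to Pvalb was not tested without cluster 12. Stac2 fell more, by -0.68 against -0.10 (difference -0.59, adjusted p = 0.000112, 0.0476 by the quasi-likelihood test). Shisa9 differed from both classes, at 0.68 in Sst against 0.27 in Pvalb (adjusted p of the difference 0.0354, 0.166 by the quasi-likelihood test) and 0.01 in Vip (0.00539 and 0.216). Grik4 differed from Vip at 0.71 against -0.01 (adjusted p = 0.0124, 0.333 by the quasi-likelihood test).

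The neuropeptide Y gene Npy changed in Pvalb nuclei and not detectably in Sst nuclei. Its log2 fold change was -1.29 in Pvalb and -0.07 in Sst (difference 1.19, SE 0.203, adjusted p = 2.04e-05 and 0.0476 by the quasi-likelihood test). Cort gave -0.58 in Pvalb and 0.77 in Sst, the latter not called (adjusted p = 0.172), with a difference of 1.37 (adjusted p = 0.000331, 0.072 by the quasi-likelihood test). In Sst nuclei the Cort value was 0.31 in GR-Con (adjusted p = 1.00) and 1.09 in GR-KO (adjusted p = 0.161). Against Pvalb 128 of 15328 genes differed, or 0.835%, with 63 positive and 65 negative and 11 by the quasi-likelihood test, and of these 17 were also called for DR against NR within Sst nuclei, 47 within Pvalb nuclei and 1 in both. Against Vip 21 of 14585 genes differed, or 0.144%, with 15 positive and 6 negative and 1 by the quasi-likelihood test. Leaving out 1 library gave 234 genes without the NR GR-KO male, 81 without the DR GR-Con female and 40 without the DR GR-KO male against Pvalb. Against Vip it gave 2 without the NR GR-Con male, 167 without the NR GR-KO male, 8 without the DR GR-Con male, 32 without the DR GR-Con female and 13 without the DR GR-KO male.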

How the data were processed

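V1 nuclei were sorted by DRAQ5 per the labels, and as GFP-negative in the study's methods, captured on droplets, and counted by the authors with Cell Ranger 8.0.1 on an mm10 reference that included the eGFP sequence, then filtered, cleared of doublets with DoubletFinder per sample, and clustered with Seurat 5.3.0. The authors deposited whole-number UMI counts per gene and nucleus, and a table of cell types that also gives each nucleus's mitochondrial content as a percent. Nuclei were joined to the counts by barcode order and summed per library, and sums of the 8 libraries were tested.

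Genes were filtered with edgeR 4.0.16 (R 4.3.3) and tested with its likelihood ratio test as in the study, with TMM factors and Benjamini-Hochberg adjustment over all genes tested. A gene counts as called at an adjusted p under 0.05, and SEs are the log2 fold change over the square root of the test statistic. The quasi-likelihood test and DESeq2 1.42.0 stand beside it. Genes were named when called, with average log2 CPM of at least 4 and no overlap between groups, ranked by fold change, or when called and on a gene list. Lists and members were chosen with earlier results of these data known. The tests were tested on simulated data. Labels say 2 mice per group. The spread between mice behind the p-values was estimated by edgeR partly over all genes together. The likelihood ratio test takes that spread as known.

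Sst nuclei were sub-clustered with scanpy 1.11.5 on 2000 variable genes and 30 components at resolution 0.6. Shares of nuclei were also computed after thinning each nucleus to 8000 UMIs, which left out 71 nuclei. Intervals are 95% exact binomial and cover counting error only. Excitatory or other origin was read as a level at least 4-fold over Sst nuclei, in the GR-Con libraries. Positions come from GENCODE vM21 on GRCm38 (89 of 92 named genes matched) and promoters from RefSeq on GRCm38.p6. Some genes that passed a test are not reported here.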

Additional observations from a re-analysis of the deposited data

Results flagged for a closer look

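Among Sst nuclei 5 genes differed in their genotype effect between rearings by the interaction test, given as the log2 genotype effect under NR less the one under DR. The value was 1.09 for Khdrbs2, an RNA-binding splicing regulator gene, which measured 49.9 and 54.6 CPM in NR GR-Con, 69.6 and 92.8 in NR GR-KO, 85.0 and 88.9 in DR GR-Con and 62.2 and 62.0 in DR GR-KO. It was -1.21 for Dusp10, whose levels are given above. The value was 2.22 for Nectin3, whose level in the NR GR-KO female was 37.1 CPM against 7.21 to 16.5 in the other libraries, and -1.63 for Gm4876 and -2.70 for Gm26633, which lay at 10.4 CPM or less. Khdrbs2 and Nectin3, the 2 positive genes, were both at least 4-fold higher in excitatory neurons than in Sst nuclei, against 2.54% of genes tested, and without the clusters with markers of non-GABA types 0 of the 5 genes passed. The adjusted p was 0.000581 for Dusp10 and 0.0381 for the other 4 genes, and neither the quasi-likelihood test nor DESeq2 called any of them (784 and 281 genes at an unadjusted p under 0.05).

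The response to dark-rearing differed between Sst and Pvalb nuclei in 128 genes and between Sst and Vip nuclei in 21 genes. Against Pvalb the lowest adjusted p belonged to the long non-coding RNA Miat (difference -0.63, SE 0.0834, adjusted p = 5.4e-10), which rose by 0.71 in Pvalb nuclei and stood at 0.09 in Sst nuclei. Against Vip it belonged to A330008L17Rik (difference 0.66, SE 0.0978, adjusted p = 2.06e-07), at -0.52 in Vip and 0.13 in Sst nuclei. These genes were named for their rank after their values were seen.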

How the results depend on the processing

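Counts of called genes depended on the test and on single mice. For DR against NR over both genotypes, in GR-Con and in GR-KO, the 138, 101 and 54 genes became 2, 21 and 1 with the quasi-likelihood test and 73, 46 and 18 with DESeq2. A sex term gave 234 genes over both genotypes and 219 in GR-KO, an equal number of 140 nuclei per library gave 62 over both and 66 in GR-Con, dispersions from all 8 libraries gave 30 in GR-Con, and no filter on low counts gave 33 in GR-KO. For GR-KO against GR-Con over both rearings, in NR and in DR, the 15, 14 and 66 genes became 0, 0 and 5 with the quasi-likelihood test, 6, 3 and 18 with DESeq2 and 4, 6 and 35 with equal nuclei. A sex term gave 47 in NR and 146 in DR, and dispersions from all 8 libraries 17 in DR. The 5 interaction genes became 0 with the quasi-likelihood test, 0 with DESeq2, 3 with no filter and 20 with a sex term. The difference to Pvalb went from 128 to 11 genes with the quasi-likelihood test and 224 with no filter, and that to Vip from 21 to 1 and 84. Alternatives chosen after seeing the data gave 9 genes in NR without the clusters with markers of non-GABA types and 8 without these and the Neb-led cluster, and for the interaction 8 without the Neb-led cluster and 0 without the others. The cause was not tested.

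Leaving out 1 library gave 51 to 318 genes for DR against NR over both genotypes, 39 to 164 in GR-Con and 5 to 732 in GR-KO, 3 to 52 for GR-KO against GR-Con over both rearings, 2 to 242 in NR and 8 to 232 in DR, 0 to 120 for the interaction, 40 to 234 against Pvalb and 2 to 167 against Vip. The Sst share changed by 0.682 to 4.01 percentage points for DR against NR and by -3.38 to 0.074 for GR-KO against GR-Con, where it reversed without the NR GR-KO female. RLE factors in place of TMM kept the 7 counts within Sst nuclei at 5 to 137 genes, each within 1.5 times of its value. Of the calls on named genes 63 were lost with DESeq2 and 104 with the quasi-likelihood test, and no call turned its direction. No paired analysis was possible because the library names carry no replicate numbers, and the sex term given above is the only block that the names allow. With 2 mice per group and 140 to 486 nuclei per library, genes at a few CPM rest on few UMIs.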
